A study of Mus musculus with 8 samples.

Results

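Mouse macrophages carrying a STING protein with a zebrafish tail were compared with macrophages of the same Sting-/- background carrying no STING transgene. Of the 53715 genes in the deposited table, 13040 entered the comparison because they reached 1 RPKM, a read count scaled by gene length and library size, in at least 2 of the 4 libraries involved. The zfCTT group is described in the labels as expressing mSTING-zfCTT, and the no-transgene group has the transgene label none and titles that name MSCV2.2. Each group has 2 libraries. All of the cells, the no-transgene group included, are labelled as lacking endogenous Sting and were treated with CMA, 10-carboxymethyl-9-acridanone, at 500 µg/ml over 4 h; this small molecule binds mouse STING. They had been grown with 10% FBS and seeded at 4 M per 10 cm dish. No library of untreated cells is in the comparison. The labels give neither the promoter that drives the transgene nor the number of clones behind a line. Separate cultures for the libraries of a group are not stated either, so the p-values reflect only how far these libraries differ, which could be technical variation. By its title, the study asked what the C-terminal tail of STING adds to interferon and NF-κB signalling. The other libraries were 2 with full mouse STING (mSTING) and 2 with STING lacking its tail (dCTT). For this comparison they entered the fit only to estimate the spread between libraries. They are otherwise given for single genes, and zfCTT was also compared with mSTING over all genes tested.

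STING is a membrane protein that senses cyclic dinucleotides made after DNA reaches the cytosol. Its C-terminal tail recruits the kinase TBK1, which activates IRF3, the factor that switches on interferon-β, and STING also activates NF-κB, which drives inflammatory cytokines and chemokines. The tail of zebrafish STING carries an added stretch that recruits TRAF6, an adaptor known from NF-κB signalling. Secreted interferon acts back on the cells through its receptor, JAK kinases and the transcription factors they activate to raise antiviral genes.

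The depth recovered from the steps of the RPKM values was 27.7 and 101 M reads for the no-transgene libraries and 20.1 and 34.8 M for zfCTT. Across the 13040 genes, which are not independent of each other, r between the log2 values of a pair was 0.947 without transgene and 0.963 with zfCTT. In a principal component analysis of all 8 libraries, the first component held 39.2% of the variance. On it zfCTT replicate 1 stood furthest out at −64.7, and zfCTT replicate 2 lay at −17.0. Libraries of the other groups ran from −2.99 (no-transgene replicate 1) to 30.5 (dCTT replicate 2). On the second component, with 36.4%, no-transgene replicate 1 stood apart at 57.7, followed by dCTT replicate 1 at 30.5. Tmem173, which encodes STING, read 3.23 and 2.42 RPKM without the transgene, so the gene was not at 0 in these cells, and 14.2 and 20.6 with zfCTT. The groups did not overlap, but the difference did not pass the test described next (log2 fold change 2.25 ± 0.38, adjusted p = 0.0502). A gene total does not separate transgene reads from reads of the disrupted locus. Of 12 macrophage markers, 11 reached 1 RPKM in some library. Their summed RPKM was 2130 to 2284 without transgene and 1281 to 1660 with zfCTT. Abundant members such as Tyrobp, at 604 and 803 against 272 and 404, weigh most in the sum, and single members went both ways. Fcgr1 (9.83 and 5.38 against 34.0 and 21.6) and Spi1 (142 and 201 against 230 and 241) were higher with zfCTT. Mertk was the macrophage marker that did not reach 1. All 5 mast cell markers were at 0, and no marker of NK cells, neutrophils, fibroblasts, epithelium, endothelium or red cells reached 1 RPKM. Single markers of other lineages did: Lck of the T cell list, Ighm of the B cell list and Batf3 of the dendritic cell list. Lck read 0.480 and 1.02 without transgene against 1.80 and 1.83 with zfCTT. Whether the cells' makeup has a part in the results was not tested, and in bulk RNA fewer cells of a type and less RNA per cell cannot be told apart.

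With zfCTT, 150 genes passed the test with higher levels and 26 with lower levels (limma on log2(RPKM + 1), adjusted p under 0.05), which is 1.15% and 0.199% of the genes tested. Fold changes below are on this log2(RPKM + 1) scale, which understates changes of low genes. The risers spanned log2 fold changes of 0.93 to 9.21 (median 2.38) and the fallers −2.61 to −0.89 (median −1.33). The median over all genes tested was −0.03, and 46.2% of them were above 0. In 129 of the 150 risers, zfCTT replicate 1 read higher than zfCTT replicate 2. The share of all tested genes with that order was not counted, so it cannot be read as particular to the risers. The filter shaped these counts: 78 of the 150 reached 1 RPKM only in the zfCTT pair, as 237 genes did in all, and 10 of the 26 only in the no-transgene pair, as 159 did. Without regard to the test, both zfCTT libraries lay above both no-transgene libraries for 2513 genes (19.3%) and below both for 2674 (20.5%).

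**Figure D1:**
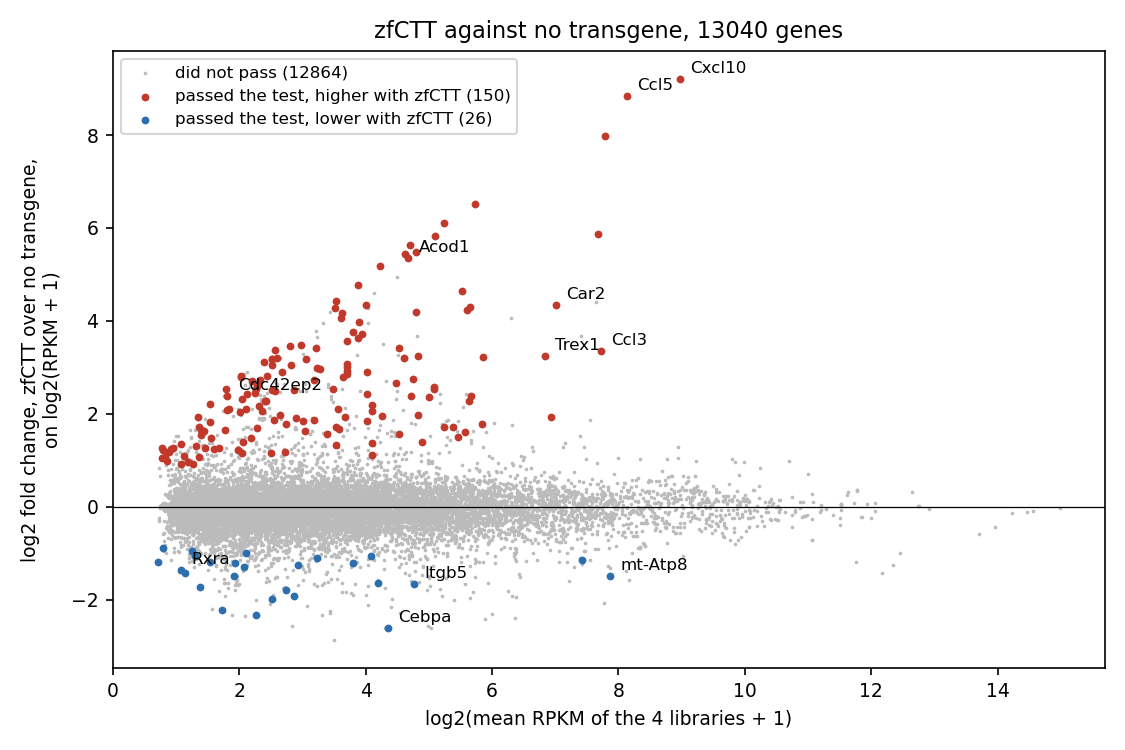
Each point is 1 of the 13040 genes, placed by its mean level over the 4 libraries (x axis, log2 of RPKM + 1) and its log2 fold change with zfCTT over no transgene (y axis). Red points (150) passed the test higher and blue points (26) lower; the risers reach 9.21 while the lowest faller, Cebpa, lies at −2.61.

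The number of genes past the test depended on single libraries. Without no-transgene replicate 1 it fell to 2 higher and 0 lower, and without no-transgene replicate 2 to 5 and 2. Without zfCTT replicate 1 it was 8 and 0, without dCTT replicate 1 it was 10 and 0, and without dCTT replicate 2 it was 14 and 0. Leaving out zfCTT replicate 2 gave 173 and 46, and leaving out mSTING replicate 1 or 2 gave 155 or 153 higher and 7 lower in each case. With no-transgene replicate 1 and dCTT replicate 1 both left out, no gene passed the limma test, although 1127 had an unadjusted p under 0.05, against 1778 with all libraries. Acod1 and Ccl7 were the 2 genes that passed in each of the 8 fits that left out a single library. Each fit with a library left out has 3 residual degrees of freedom in place of 4, and in these fits the lone library of a group is assumed to vary like the others. Of the genes described below, Acod1 alone also passed without no-transgene replicate 1.

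**Figure D2:**
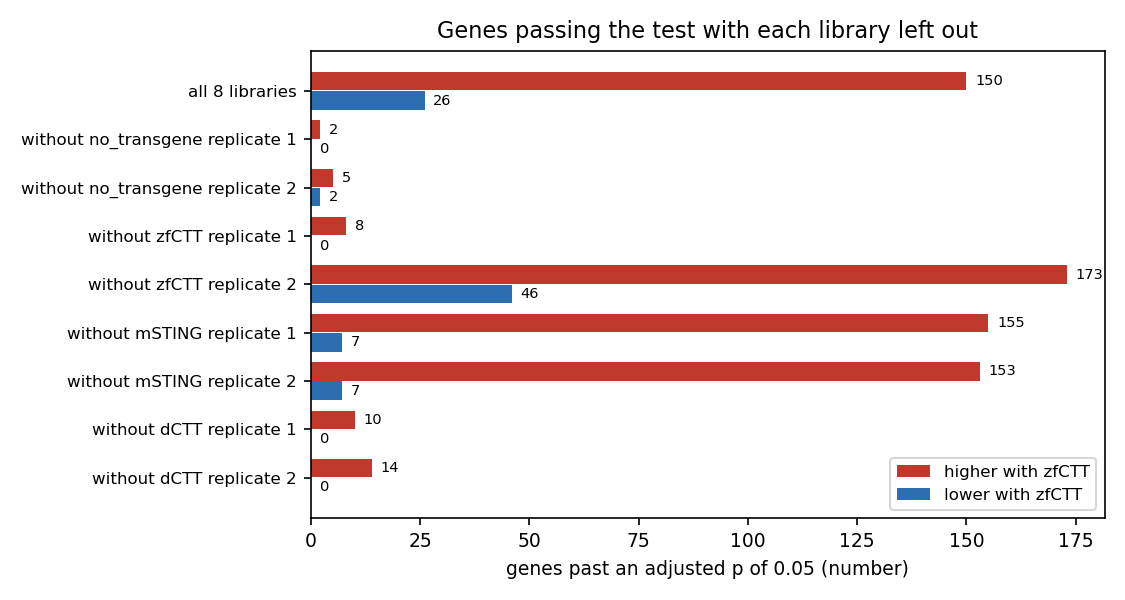
Bars give the number of genes past an adjusted p of 0.05 (x axis), higher in red and lower in blue, for the fit to all 8 libraries and for the 8 fits with a single library left out. The count of higher genes ranges from 2, without no-transgene replicate 1, to 173, without zfCTT replicate 2.

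Effectors of the interferon response, the largest of the 31 gene lists, held the most risers, where 1.15% of all genes tested rose. The smaller lists of chemokines and of inflammatory cytokines had 6 risers of 15 and 6 of 16 tested. Of 88 listed antiviral effectors, 69 were tested, 29 rose and 0 fell, with a median log2 fold change of 2.61 over the tested members. Of those 69, 35 entered only through the zfCTT pair, and a member that enters in this way had to differ. Besides Isg15, Rsad2 and Ifit1, the risers of this list included enzymes and GTPases. Cmpk2, a mitochondrial nucleotide kinase, read 0 in both no-transgene libraries and 39.2 and 31.5 RPKM with zfCTT. Against a floor of 3 reads per library it was at least 2134-fold higher (log2 fold change 5.17 ± 0.57, SE; limma, adjusted p = 0.0192). Floors cover counting error only. Usp18, which strips ISG15 from proteins and dampens interferon receptor signalling, is counted in the list of interferon receptors, JAK, STAT and IRF factors instead. It read 0.0905 and 0.0815 RPKM in the no-transgene libraries and 57.1 and 37.3 with zfCTT (5.44 ± 0.55, adjusted p = 0.0177). Slfn2, an antiviral list member of the Schlafen family needed for immune cell quiescence, went from 2.15 and 2.56 to 117 and 58.2 RPKM (4.64 ± 0.47, adjusted p = 0.0177). The groups did not overlap in any of these genes, and zfCTT replicate 1 was the higher library in each.

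The risers of this list included 6 genes of guanylate-binding or immunity-related GTPases, families known from the defence against microbes held in vacuoles. Gbp2, a guanylate-binding protein, read 0.0143 and 0.00786 RPKM without the transgene and 30.2 and 11.4 with zfCTT (4.28 ± 0.52, adjusted p = 0.0223). Its neighbours Gbp3 (0.188 and 0.197 against 33.9 and 10.3) and Gbp7 (0.0385 and 0.0458 against 13.6 and 5.10) rose with adjusted p of 0.0389 and 0.0482. The immunity-related GTPases on chromosome 11 stood at higher base levels. Igtp went from 1.82 and 1.73 to 65.9 and 37.5 RPKM, Irgm1 from 0.652 and 0.367 to 21.8 and 10.4, and Irgm2 from 1.08 and 0.645 to 31.6 and 18.1. Their log2 fold changes were 4.19, 3.42 and 3.75 (adjusted p = 0.0223, 0.0192 and 0.0120). The groups did not overlap for any of these GTPases, and zfCTT replicate 1 was the higher library each time. Igtp and Irgm2 share 162 bases of exon, so part of their reads cannot be told apart. The RNA sensors Dhx58, also known as LGP2, and Ifih1, also known as MDA5, were further risers of the list, by 3.63 ± 0.53 and 1.72 ± 0.25 on the log2 scale (adjusted p = 0.0389 for each).

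In the list of STING and DNA-sensing genes, 1 of 21 tested members rose and 0 fell (median 0.68). The riser was Trex1, the exonuclease that clears cytosolic DNA and thereby limits STING signalling. It read 18.4 and 23.4 RPKM in the no-transgene libraries and 198 and 214 with zfCTT, a log2 fold change of 3.25 ± 0.38 (adjusted p = 0.0217). Trex1 shares 1147 bases of exon with Atrip, so its value is uncertain where reads of both were counted. Among 21 interferon genes, Ifnb1 alone passed the filter. The other 20 stayed at or under 0.0203 RPKM without the transgene and 0.700 with zfCTT, levels at which no difference could be tested here.

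Short stretches upstream of risers show the letters that interferon-activated factors and NF-κB are known to bind. They belong to genes past the test and are taken from RefSeq promoter windows on GRCm38.p6 that run from 250 bases before to 50 after a gene's start. Each stretch ends before the start site, and capitals mark matches to GAAA followed by any 2 bases and GAAA, a core of interferon-stimulated response elements, or to GGANNTTCC, a κB-like motif, on either strand.
Cxcl10, chr5:92349024-92349117, minus strand: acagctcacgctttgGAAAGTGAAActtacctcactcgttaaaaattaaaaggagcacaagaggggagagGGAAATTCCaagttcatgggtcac
Isg15, chr4:156200836-156200911, minus strand: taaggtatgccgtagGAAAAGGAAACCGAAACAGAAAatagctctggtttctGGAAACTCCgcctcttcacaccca
Ifit1, chr19:34640770-34640828, plus strand: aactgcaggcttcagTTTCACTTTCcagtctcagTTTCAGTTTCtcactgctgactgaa
Gbp3, chr3:142559984-142560029, plus strand: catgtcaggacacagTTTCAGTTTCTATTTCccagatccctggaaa
Igtp, chr11:58199507-58199546, plus strand: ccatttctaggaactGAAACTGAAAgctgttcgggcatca
Irgm2, chr11:58214898-58214937, plus strand: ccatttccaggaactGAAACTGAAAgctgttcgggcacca
Socs1, chr16:10785589-10785634, minus strand: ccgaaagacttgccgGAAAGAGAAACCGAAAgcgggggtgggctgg
Acod1, chr14:103046912-103046950, plus strand: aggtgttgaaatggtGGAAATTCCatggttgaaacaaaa
Ifnb1, chr4:88522886-88522924, minus strand: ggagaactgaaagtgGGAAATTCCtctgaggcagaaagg
Icam1, chr9:21015772-21015810, plus strand: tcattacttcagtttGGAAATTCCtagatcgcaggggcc
Ccrl2, chr9:111057563-111057601, minus strand: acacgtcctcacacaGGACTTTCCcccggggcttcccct

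In Cxcl10 both motifs lie in a single stretch, beginning 213 and 158 bases before the start. Isg15 holds 3 overlapping response element cores from 78 bases before the start. Windows on chromosome 18 were left out. Among the rest, windows were found for 7744 of the 13040 genes, 104 of the 150 risers and 16 of the 26 fallers. The response element core was in a window of 22 of the 104 risers (21.2%), 1 of the 16 fallers (6.25%) and 4.05% of all tested genes with a window. GGANNTTCC was in 18 risers (17.3%), 0 fallers and 5.59% of all. TGANTCA, an AP-1 motif, was in 14 risers (13.5%), 2 fallers (12.5%) and 5.54% of all. Both of the first pair of motifs were in windows of 4 risers (3.85%) against 0.245% of all. Over the 32851 single windows kept, the 3 motifs were in 3.44%, 4.26% and 7.81%. A match describes letters in this window and is not a bound site, and a window without a match leaves other positions unexamined.

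Part of the interferon signalling genes rose. Of 27 tested members of the list of interferon receptors, JAK, STAT and IRF factors, 8 rose and 0 fell, 10 had a negative fold change, and the median was 0.48; 6 of the 27 entered only through the zfCTT pair. Irf1, an early transcription factor shared by interferon and NF-κB responses, read 4.05 and 3.67 RPKM in the no-transgene libraries and 109 and 74.3 with zfCTT (4.23 ± 0.46, adjusted p = 0.0191). Irf9, the DNA-binding subunit of a complex that binds interferon-stimulated response elements, went from 0.971 and 0.983 to 6.99 and 7.54 (2.06 ± 0.21, adjusted p = 0.0177). Irf9 overlaps Rnf31 and Irf1 overlaps Gm17334. Stat2, which acts together with Irf9, read 0.627 and 0.670 against 5.53 and 5.37 RPKM and narrowly missed the threshold (1.97 ± 0.33, adjusted p = 0.0502).

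Inhibitors of cytokine receptor signalling were among the risers. Socs1 read 0.186 and 0.387 RPKM without the transgene and 18.2 and 26.5 with zfCTT (4.16 ± 0.53, adjusted p = 0.0267). Socs3 went from 4.17 and 6.11 to 40.0 and 35.3 RPKM (2.67 ± 0.30, adjusted p = 0.0192). Cish went from 0.0955 and 0.148 to 1.79 and 1.55 (1.25 ± 0.15, adjusted p = 0.0218), and shares exon with Gm17041. The pairs of values did not overlap in any of these inhibitors. The receptor chain Ifnar1 did not pass, at 9.22 and 10.5 RPKM in the no-transgene libraries and 5.56 and 7.71 with zfCTT (−0.52 ± 0.20, adjusted p = 0.335).

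Cytokines and chemokines contained a further set of risers. Of 44 listed inflammatory cytokines and growth factors, 16 were tested, 6 rose and 0 fell (median 1.40). Of those 16, 5 entered only through the zfCTT pair and so had to differ. Il27, a subunit of the cytokine IL-27 that restrains and shapes T cell responses, read 0.565 and 0.745 RPKM without the transgene and 16.02 and 12.05 with zfCTT (3.17 ± 0.33, adjusted p = 0.0177). Ltb, lymphotoxin β, went from 0.333 and 0.326 to 6.12 and 3.56 (2.10 ± 0.25, adjusted p = 0.0218). The others were Il12b, Il1rn, Csf1 and Tnf. Some cytokines well known from activated macrophages stayed below the filter. Il6 read 0.0446 and 0.00407 RPKM in the no-transgene libraries and 0.123 and 0.0237 with zfCTT, Il10 did not exceed 0.114 in any of the 4 libraries, and Il1b exceeded 1 RPKM only in zfCTT replicate 1, at 3.30 against 0.241 in replicate 2.

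Of 15 tested chemokines, 6 rose and 0 fell, 7 having entered only through the zfCTT pair. With the replicate numbers of the titles fitted as a block, or among protein-coding genes alone, 9 rose, and 1 or 3 fell. Ccl3, which attracts monocytes and T cells, was already abundant without transgene, at 27.5 and 46.9 RPKM, and read 452 and 312 with zfCTT (3.35 ± 0.45, adjusted p = 0.0299). Ccl2, the main attractant of monocytes, read 12.5 and 41.6 against 253 and 371 RPKM and did not pass (3.68 ± 0.76, adjusted p = 0.0843). Its no-transgene libraries lay far apart from each other, though below both zfCTT libraries. Pf4, a platelet-type chemokine that macrophages also make, went the other way, at 215 and 228 against 56.2 and 94.1 RPKM, and did not pass (−1.59 ± 0.28, adjusted p = 0.0550).

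NF-κB components and brakes rose in part. Of 31 tested members, 6 rose and 0 fell, with a median of 0.54, and 2 of the 31 entered only through the zfCTT pair. Tnip1, a partner of the deubiquitinase A20, read 18.9 and 25.8 RPKM without the transgene and 67.0 and 61.1 with zfCTT (1.49 ± 0.23, adjusted p = 0.0423). Relb, the subunit of the non-canonical pathway, went from 3.42 and 5.17 to 17.1 and 12.1 (1.56 ± 0.26, adjusted p = 0.0495). Nfkbiz, a nuclear regulator of secondary response genes, went from 0.697 and 0.632 to 2.36 and 1.98 (0.93 ± 0.15, adjusted p = 0.0495). The last 2 sat just inside the threshold. Of the innate sensors, the peptidoglycan receptors Nod1 (0.320 and 0.346 against 3.33 and 2.46 RPKM) and Nod2 (0.381 and 0.443 against 3.11 and 1.99) rose, at adjusted p of 0.0469 and 0.0487. They were 2 of 16 tested in the list of Toll-like receptors and sensors, where none fell. These 2 genes entered only through the zfCTT pair and so had to differ. With the filter over all 8 libraries, 0 of the 16 rose.

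Among inducible enzymes and effectors, 3 of 20 rose and 0 fell (median 0.67). Of the 20, 3 entered only through the zfCTT pair, Acod1 among them. Acod1, which makes the antimicrobial metabolite itaconate, had the smallest adjusted p of the comparison. It read 0.192 and 0.237 RPKM in the no-transgene libraries and 54.3 and 43.5 with zfCTT, a 228-fold difference of the means (5.35 ± 0.20, adjusted p = 0.000683). Car2, the cytosolic carbonic anhydrase 2, went from 13.3 and 8.54 to 313 and 175 RPKM (4.33 ± 0.36, adjusted p = 0.0120). Slc2a6, a lysosomal hexose transporter, went from 5.73 and 8.12 to 28.2 and 30.4 (1.95 ± 0.20, adjusted p = 0.0177). Ass1, which makes argininosuccinate in the recycling of citrulline to arginine, lies outside the lists and read 5.29 and 3.34 against 62.7 and 37.8 RPKM (3.25 ± 0.43, adjusted p = 0.0296).

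Surface molecules that act on lymphocytes also rose. Of 16 tested co-stimulatory and checkpoint molecules, 4 rose and 1, Vsir, fell. Of the 16, 2 entered only through the zfCTT pair, Cd274 among them, and 1 only through the no-transgene pair. Cd274, the checkpoint ligand PD-L1, read 0.428 and 0.357 RPKM without the transgene and 8.84 and 5.51 with zfCTT (2.52 ± 0.21, adjusted p = 0.0120). Icam1, the ligand of the integrin LFA-1, went from 14.9 and 14.6 to 109 and 59.3 RPKM (2.37 ± 0.35, adjusted p = 0.0389). Lgals9, the lectin galectin-9, went from 3.65 and 1.87 to 59.0 and 24.03 (3.41 ± 0.55, adjusted p = 0.0481). Fcgr4, an activating Fc receptor, went from 1.06 and 0.472 to 10.7 and 5.08 (2.27 ± 0.34, adjusted p = 0.0409). It was the single riser of 37 tested macrophage surface receptors, which had 1 faller, C5ar2, and a median of −0.51.

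Antigen presentation rose in part. Tap1, a subunit of the peptide transporter for MHC class I, read 1.996 and 2.23 RPKM with no transgene and 26.8 and 17.3 with zfCTT (2.86 ± 0.46, adjusted p = 0.0470), and H2-Q4, a non-classical class I gene, read 4.57 and 6.60 against 32.8 and 20.5 (2.05 ± 0.34, adjusted p = 0.0495). They were the 2 risers of 24 tested class I presentation genes, whose median was 1.16. In class II, H2-Eb1 went from 1.43 and 1.34 to 5.22 and 6.14 RPKM (1.48 ± 0.22, adjusted p = 0.0409), and was the 1 riser of 10 tested genes. Members of the class I family have near-identical stretches, so H2-Q4 is uncertain.

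**Figure D3:**
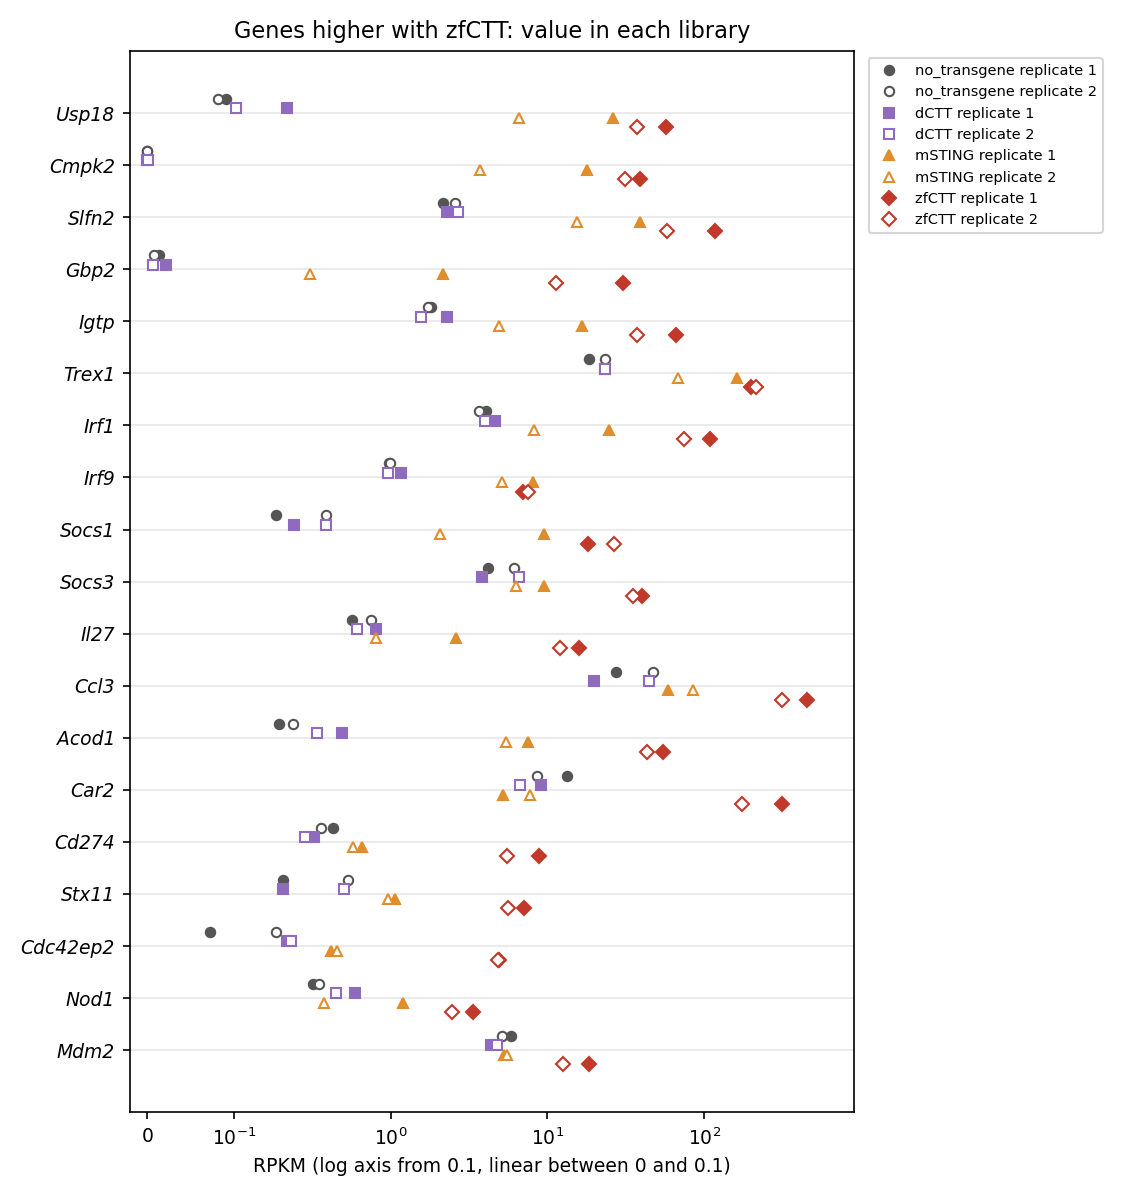
RPKM of 19 genes higher with zfCTT, 1 symbol per library, on a log axis that is linear below 0.1; filled symbols are replicate 1 and open symbols replicate 2 of each of the 4 groups. Both zfCTT libraries (diamonds) lie above both no-transgene libraries (circles) in every row; Car2 is the row where both mSTING libraries lie below the lower no-transgene library.

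Cdc42ep2 and Stx11 lie outside every list and had among the smallest adjusted p. Cdc42ep2, an effector of the small GTPase CDC42 that shapes the actin cytoskeleton, read 0.0726 and 0.186 RPKM in the no-transgene libraries and 4.92 and 4.82 with zfCTT (2.38 ± 0.14, adjusted p = 0.00331). Stx11, a syntaxin that acts in granule release of immune cells, went from 0.206 and 0.533 to 7.05 and 5.57 (2.42 ± 0.20, adjusted p = 0.0120). Receptors coupled to G proteins were picked out after their values were seen. Gpr84, a receptor of medium-chain fatty acids, read 19.0 and 17.5 against 74.3 and 52.2 RPKM. Ffar4, a receptor of long-chain fatty acids, read 0.518 and 0.589 against 3.47 and 3.20, and Hcar2, the niacin receptor, 1.12 and 0.666 against 3.98 and 3.02. The β1-adrenoceptor gene Adrb1 (0.116 and 0.115 against 1.56 and 1.05) and the muscarinic receptor gene Chrm4 (1.75 and 2.27 against 14.6 and 7.05) rose too. Adjusted p for these receptors ran from 0.0177 to 0.0495, and Gpr84 overlaps Gm49482. Risers among nuclear proteins, also picked out after their values were seen, included the POU factor Pou3f1 (0 and 0.0231 against 4.66 and 2.84), the SOX factor Sox12 (0.850 and 0.439 against 6.71 and 5.29) and the linker histone H1fx (0.593 and 1.73 against 17.5 and 13.6).

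Some p53 targets and 1 immediate early gene passed, in a comparison where 1.15% of all genes tested rose and 0.199% fell. Of 18 tested p53 targets, 2 rose and 1 fell, and the median was 0.08. Mdm2, the ubiquitin ligase that limits p53, read 5.84 and 5.15 RPKM without the transgene and 18.4 and 12.5 with zfCTT (1.32 ± 0.21, adjusted p = 0.0440). Gadd45b, a stress sensor that NF-κB is known to induce, went from 3.02 and 5.77 to 17.1 and 20.9 (1.93 ± 0.30, adjusted p = 0.0423). Sesn1, a sestrin that restrains mTORC1, fell from 10.9 and 8.48 to 3.07 and 3.88 (−1.26 ± 0.20, adjusted p = 0.0440). Of 39 AP-1 and immediate early genes, 1 rose, Csrnp1, and 0 fell. These counts were 5 and 5 under that block, and 4 and 4 among protein-coding genes alone. Dusp6, a phosphatase of ERK, and the ETS factors Etv4 and Etv5, which are known targets of ERK signalling, had lower values with zfCTT without passing. Dusp6 read 23.5 and 28.8 against 5.84 and 10.8 RPKM (−1.59 ± 0.29, adjusted p = 0.0602), and the adjusted p was 0.0541 for Etv4 and 0.0572 for Etv5.

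The genes that fell held nuclear factors, receptors and enzymes. Rxra, the retinoid X receptor that pairs with many nuclear receptors, read 1.65 and 2.40 RPKM in the no-transgene libraries and 0.137 and 0.200 with zfCTT (−1.36 ± 0.17, adjusted p = 0.0254). With Cebpa it made up the 2 fallers of 23 tested lineage transcription factors, of which 0 rose and whose median was −0.42. Zfp395, a zinc finger protein, went from 8.75 and 12.2 to 1.25 and 2.92 (−1.93 ± 0.29, adjusted p = 0.0412). Gpr183, the oxysterol receptor that guides cell migration, went from 8.86 and 7.40 to 0.726 and 2.001 (fold of the means 0.168, adjusted p = 0.0495). Stc2, a secreted stanniocalcin, went from 3.71 and 2.24 to 0.0289 and 0.367 (−1.72 ± 0.24, adjusted p = 0.0337). In each of these fallers zfCTT replicate 1 was the lower of the 2 zfCTT libraries, as in 20 of the 26. For this order, too, the share of all tested genes was not counted.

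Further genes also fell. Ptpn7, a tyrosine phosphatase of MAP kinases, read 18.1 and 18.4 RPKM without the transgene and 6.39 and 8.39 with zfCTT (−1.21 ± 0.19, adjusted p = 0.0423). Fut7, a fucosyltransferase that completes selectin ligands, went from 4.09 and 4.63 to 1.16 and 1.43 (−1.22 ± 0.16, adjusted p = 0.0299). Ocstamp, a membrane protein of cell fusion in the osteoclast and macrophage lineage, went from 2.32 and 2.30 to 0.627 and 0.558 (−1.06 ± 0.16, adjusted p = 0.0401). Rassf3, Dmpk, Asb10, Abhd15 and Frat1 also fell, with log2 fold changes of −1.10, −1.06, −1.44, −1.30 and −0.96, and Rcsd1, a regulator of actin capping, read 4.26 and 5.24 against 1.89 and 1.82 RPKM. No gene of the 11 complement or 14 integrin genes tested fell other than C5ar2 and Itgb5.

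**Figure D4:**
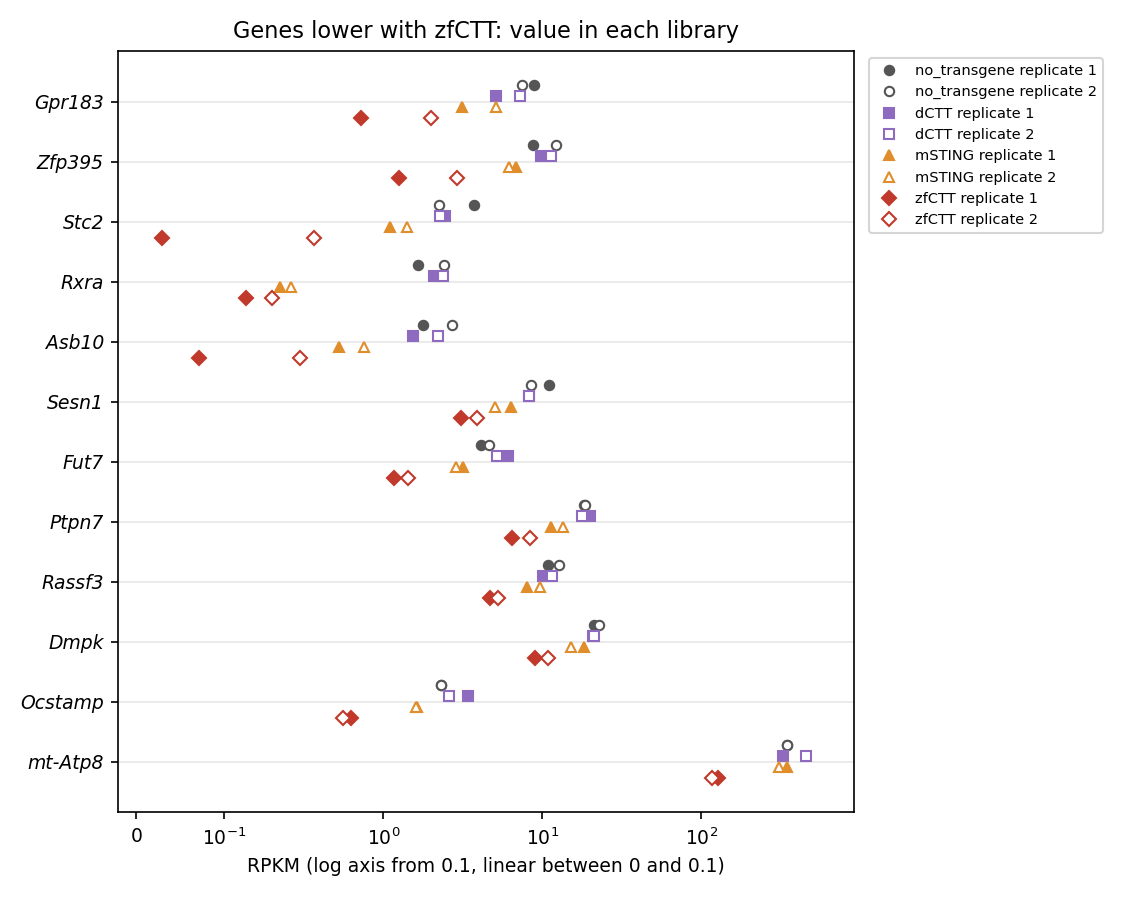
RPKM of 12 genes lower with zfCTT, 1 symbol per library as in the plot of the risers, on a log axis that is linear below 0.1. Both zfCTT libraries (diamonds) lie below both no-transgene libraries (circles) in every row; in Rxra both mSTING libraries, at 0.224 and 0.262 RPKM, lie close to the zfCTT pair.

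All 13 mitochondrially encoded genes read lower in both zfCTT libraries than in both no-transgene libraries, against 20.5% of all genes tested, with a median of −0.98. Of these, 2 passed, mt-Atp8 (345 and 345 against 127 and 117 RPKM; adjusted p = 0.0337) and mt-Atp6 (229 and 245 against 111 and 100.4; adjusted p = 0.0448), which overlap each other. The 43 tested nuclear-encoded genes of the respiratory chain had 0 calls and a median of −0.14. No gene passed in either direction in the lists of lysosome (34 tested), cell cycle (52), cytosolic ribosomal protein (54), histone (33), NRF2 (22), unfolded protein response (29), glycolysis (24), cell death (27) or housekeeping genes (14). Cholesterol and fatty acid genes also had 0 calls among 37, with a median of 0.38, and 20 of the 37 were higher in both zfCTT libraries, as were 19.3% of all genes tested. Actb read 2687 and 2963 RPKM in the no-transgene libraries and 3402 and 3628 with zfCTT (0.32 ± 0.17, adjusted p = 0.491).

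**Figure D5:**
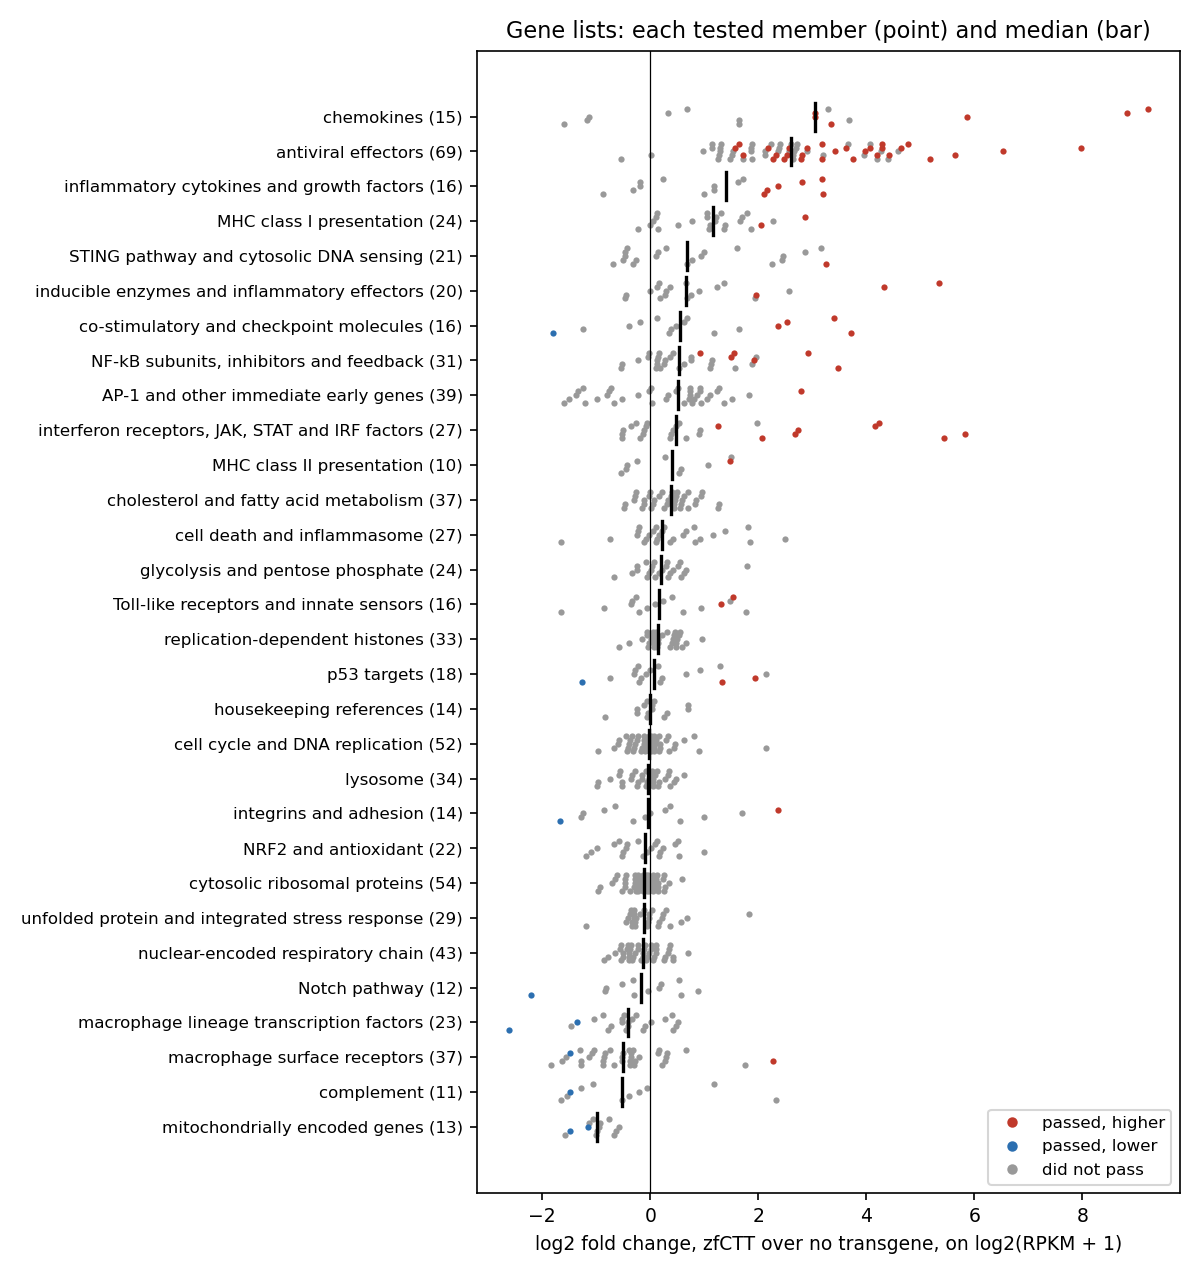
Log2 fold change with zfCTT over no transgene (x axis) for each tested member of the 30 lists with at least 5 tested members (rows, number tested in brackets); black bars are medians. Medians run from −0.98 in the mitochondrially encoded genes to 3.05 in the chemokines, and red and blue points mark members that passed the test.

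Full mouse STING was compared with zfCTT in the same fit. There, 17 of the 13040 genes (0.13%) passed as higher and 1 (0.00767%) as lower in zfCTT than in mSTING. Car2 read 5.24 and 7.76 RPKM with mSTING and 9.10 and 6.71 with dCTT, near its no-transgene level, and differed between zfCTT and mSTING by 4.99 ± 0.36 (adjusted p = 0.0107). Cdc42ep2 read 0.419 and 0.456 with mSTING (difference 2.03 ± 0.14, adjusted p = 0.0107), Cd274 0.652 and 0.576 (2.31 ± 0.21, adjusted p = 0.0270) and H2-Eb1 0.201 and 0.354 (2.39 ± 0.22, adjusted p = 0.0270). Of the 150 risers, 143 had both mSTING libraries below both zfCTT libraries. Both mSTING libraries lay above both no-transgene libraries in 128 of the 150. These counts are a description, as the genes were chosen for high zfCTT and low no-transgene values. The shares over all tested genes are not given here. Irf9 and Ffar4 were not among the 143. Irf9 read 8.12 and 5.13 RPKM with mSTING and differed by 0.14 ± 0.21 (adjusted p = 0.782), a difference that changed sign, to −0.14, without mSTING replicate 2. Ffar4 read 4.90 and 4.29 RPKM with mSTING and differed by −0.37 ± 0.16 (adjusted p = 0.451). The lists of higher genes in this comparison and in the one with no transgene share the zfCTT libraries. Over the alternative settings, Car2 stayed past the threshold in 14 of 18, Cdc42ep2 in 12 of 17, Cd274 in 8 of 17 and H2-Eb1 in 7 of 17.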

How the data were processed

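The authors deposited RPKM per gene for 8 libraries of polyadenylated RNA. Per the submitters' processing notes, HISAT2 2.1.0 and cutadapt 1.16 were used with GRCm38 or mm10. How reads were counted, with which annotation and strand setting, is not given in the sources used here, so genes that overlap on either strand are uncertain. Symbols were matched for 53620 of 53715 identifiers in the GENCODE M21 annotation. Between 95.0% and 95.6% of nonzero values were whole multiples of 1 read, within 0.05, which gave the depths. RPKM are not counts, so limma 3.58.1 in R 4.3.3 was run on log2(RPKM + 1), with all 8 libraries in 1 fit, an intensity trend and Benjamini-Hochberg adjustment over the 13040 genes. The method was tested on simulated data. There each library varied independently, so deviations shared between libraries of different groups were not covered.

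The genes compared and the 31 gene lists were chosen with earlier results of these data known. Genes were named from those past the threshold whose libraries did not overlap, protein coding and with a mean RPKM of at least 1: the 30 largest rises and falls, the 20 smallest adjusted p in each direction and, whether or not they passed, fixed genes and the 4 members of each list lowest in adjusted p. Genes named after their values were seen besides those marked in the text are Nfkbiz, Relb, Cish, Ltb, Ccrl2, Gbp7, Ifih1, Ccl2, Pf4, Stat2 and Ifnar1. Alternatives covered pseudocounts, filters, the libraries fitted, centring, voom on recovered reads, gene type and each library left out. The values of 1 gene are not reported here.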

Additional observations from a re-analysis of the deposited data

How the results depend on the processing

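The count of genes higher with zfCTT, 150, stayed within 1.5 times under pseudocounts of 0.1 (149) and 0.5 (169), the filter over all 8 libraries (125) and centring of each library on its median (135). It was 40 without a filter on low values, 70 at a mean RPKM of at least 5, 34 with only the 4 libraries of the comparison, 72 with voom on recovered reads and 281 among protein-coding genes. The count of lower genes, 26, was 14, 7, 0, 6 and 87 under those settings in the same order. The lone 0 had 1080 genes at an unadjusted p under 0.05. These totals are not all genes of the reported fit. Without a filter on low values, 26 of the 40 higher and 1 of the 14 lower genes were among the reported 150 and 26. Among protein-coding genes it was 127 of 281 and 24 of 87, and with only the 4 libraries 32 of 34 higher. At a mean RPKM of at least 5 and with voom, all were. With the replicate block, which uses the replicate number of the titles, the counts were 326 and 156. The numbers are not known to pair libraries: the deviations of same-numbered libraries correlated at r = 0.763 between no transgene and dCTT, 0.451 between no transgene and zfCTT, 0.414 between zfCTT and dCTT and 0.266 between zfCTT and mSTING, but at 0.0270 and 0.0246 between mSTING and no transgene or dCTT. Antiviral effectors had 60 risers of 69 with the block and 54 among protein-coding genes, against 29. In both settings 6 STING and DNA-sensing genes rose, against 1, and 3 cell death genes, against 0. Leaving out 1 library gave 2 to 173 higher and 0 to 46 lower genes. Leaving out no-transgene replicate 1 and dCTT replicate 1 together, a setting chosen after seeing the data, gave 0 and 0, with 1127 genes at an unadjusted p under 0.05. Of 1751 values of named genes under these alternatives, 797 lost the call and 25 gained it, and of 589 list medians 27 changed sign, in 11 lists. For MHC class II presentation the median went from 0.40 to −0.44 at a mean RPKM of at least 5, and the other 10 lists had medians between −0.17 and 0.17 in the reported fit. The difference of Irf9 between zfCTT and mSTING ran from −0.14 to 0.43 with 1 library left out. The cause of these changes was not tested, except that filters change the number of genes tested. The shallowest libraries were zfCTT replicate 1 and no-transgene replicate 1, at 20.1 and 27.7 M reads.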

Other observations

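Genes outside the lists and outside the naming rule rose with zfCTT and were picked out after their values were seen. Spint1, an inhibitor of membrane serine proteases, had 1.73 and 1.30 RPKM in the no-transgene libraries and 8.62 and 7.66 with zfCTT (limma, adjusted p = 0.0177). Procr, the endothelial protein C receptor, read 1.85 and 2.19 against 9.55 and 9.17 RPKM (adjusted p = 0.0177). Sdc4, a heparan sulfate proteoglycan, read 22.2 and 22.96 against 70.6 and 70.9 RPKM (adjusted p = 0.0196). Ezr, which overlaps Sytl3 and ties the membrane to actin, read 14.1 and 19.6 against 60.2 and 53.6 RPKM, and Rab20, a GTPase of phagosome maturation that overlaps E230013L22Rik, 9.27 and 11.5 against 53.2 and 35.2 (adjusted p = 0.0224 and 0.0223). The groups did not overlap in any of these genes.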
